A study of Mus musculus with 4 samples.

Results

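The miR-10 and miR-196 families are microRNAs (miRNAs) whose genes lie among the Hox genes, the homeobox transcription factors that give cells their position along the body axis. Their members mmu-miR-10a-5p, mmu-miR-10b-5p, mmu-miR-196a-5p and mmu-miR-196b-5p (mmu for mouse, left out below) were chosen by name from the mouse probes of the arrays, and these 4 were among 1247 mouse miRNAs measured. The profiles came from the stromal vascular fraction (SVF) of mouse visceral white adipose tissue (visWAT), the mixed cells that remain after collagenase digestion once floating adipocytes are removed. 2 arrays held SVF RNA of mice given the β3-adrenoceptor agonist CL-316243 (CL) at 1 mg/kg in PBS for 3 days, and 2 arrays held that of mice given PBS alone (vehicle). All mice were female, 8 weeks old and on standard diet. The labels give room temperature for their housing, whereas the methods describe a move to thermoneutral conditions before the experiments, with cold exposure named next, and do not say whether it held for these mice. The protocol names the strain C57/BL6 for all samples, whereas the strain field runs from C57/BL6 to C57/BL9 over the 4 samples. The injections are subcutaneous in the labels and intraperitoneal in the methods. By the figure legend of the study each array stands for 1 sample from 5 mice, with 2 samples per group, and p-values measure only the spread between those samples.

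A miRNA guides the silencing complex to messenger RNAs that pair with its seed, the bases 2 to 8 from its 5′ end. The Hox clusters carry both protein-coding genes and miRNAs, and cells of different body regions keep distinct Hox and Hox-miRNA levels into adulthood, adipose depots included. The miR-196 family is best known for silencing Hox genes of its own clusters, Hoxb8 foremost, and miR-196a has been described as a promoter of brown adipocyte formation from white fat progenitors. The miR-10 family is known from development, blood vessel growth and tumour invasion.

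The mature sequences of all 4 members were found in RefSeq (assembly GRCm38.p6). They are printed 5′ to 3′ with the seed in capitals, because the seed groups them into 2 families and a single base outside the seed separates the members of each family.
mmu-miR-10a-5p: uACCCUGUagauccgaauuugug
mmu-miR-10b-5p: uACCCUGUagaaccgaauuugug
mmu-miR-196a-5p: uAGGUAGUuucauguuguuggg
mmu-miR-196b-5p: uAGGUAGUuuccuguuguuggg
The miR-10 members shared 22 of 23 bases and differed by U12A, and the miR-196 members shared 21 of 22 bases and differed by A12C, with positions counted from 1 at the 5′ end, the a member first and the b member second.

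Each member lay in a Hox cluster. MiR-10a-5p is encoded at chr11:96317186-96317208 on the plus strand, within the extent of Hoxb3, and its gene Mir10a ends 992 bp from Hoxb4. MiR-10b-5p is encoded at chr2:74726074-74726096 on the plus strand, within the annotated extents of both Hoxd3 and Hoxd4. MiR-196a-5p is made from 2 genes, at chr11:96265187-96265208 between Hoxb13 and Hoxb9 and at chr15:102973365-102973386 between Hoxc10 and Hoxc9, both on the plus strand, and the arrays cannot separate their products. MiR-196b-5p is encoded at chr6:52230129-52230150 on the minus strand, between Hoxa9 and Hoxa10. The table used gives gene extents only, so exons and introns were not resolved.

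The probes that measured the members are shown because they decide whether the near-identical members can be told apart. The longest probe of each is printed 5′ to 3′ as DNA, with the base opposite position 12 in capitals.
miR-10a-5p probe: cacaaattcggAtctacaggg
miR-10b-5p probe: cacaaattcggTtctacaggg
miR-196a-5p probe: cccaacaacaTgaaactaccta
miR-196b-5p probe: cccaacaacaGgaaactacc
All probes of the members covered position 12, and none matched another mouse mature miRNA of RefSeq exactly. Each matched 1 other with a single mismatch, namely the other member of its own family. How much RNA of one member bound to the probes of the other was not tested.

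The arrays were one-colour Agilent mouse miRNA arrays labelled with Cy3. They shared 1 slide and 1 scan. The vehicle arrays occupied row 1 of the slide and the CL arrays row 2, and the effects of row and treatment cannot be told apart. Replicate 1 of each group lay in column 3 and replicate 2 in column 4. The scanner software detected between 386 and 431 miRNAs per array, and the 425 found on both vehicle arrays or on both CL arrays were tested. Their median difference between CL and vehicle was −0.02 on the log2 scale. From lists of miRNAs known from the cell types of the labelled tissue, mesenchymal (miR-199a-3p), endothelial (miR-126-3p) and leukocyte (miR-223-3p) members were detected on all 4 arrays. Red cell (miR-451a), skeletal muscle (miR-1a-3p) and neural (miR-124-3p) members were detected on all 4 as well, so detection alone does not identify the tissue.

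The miR-10 members were lower and the miR-196 members higher in the SVF after CL. By fold of the normalized signal, miR-10b-5p was 2.49-fold and miR-10a-5p 1.61-fold lower, whereas miR-196a-5p was 1.75-fold and miR-196b-5p 1.55-fold higher. In none of the 4 did the CL arrays overlap the vehicle arrays. Among all tested miRNAs both CL arrays lay above both vehicle arrays for 37.6% and below them for 34.8%, so this separation was common. None of the 4 passed limma's Benjamini-Hochberg adjusted threshold of 0.05, which 0 of the 425 tested miRNAs (0%) passed. All 4 passed an unadjusted p of 0.05, the threshold named in the methods of the study, as did 18.8% of the tested miRNAs in the direction of higher and 16.7% in the direction of lower signal after CL. By SAM and by the methods' t-test 60 and 54 of the tested miRNAs passed the unadjusted threshold, and 0 the adjusted one by either. SAM (significance analysis of microarrays) used 6 relabellings of the arrays, the observed one among them. With so few it cannot pass the adjusted threshold, and the number that can pass the unadjusted one is capped. Both miR-10 members were among the 60, and miR-10b-5p alone among the 54, and neither miR-196 member was in these counts.

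**Figure D1:**
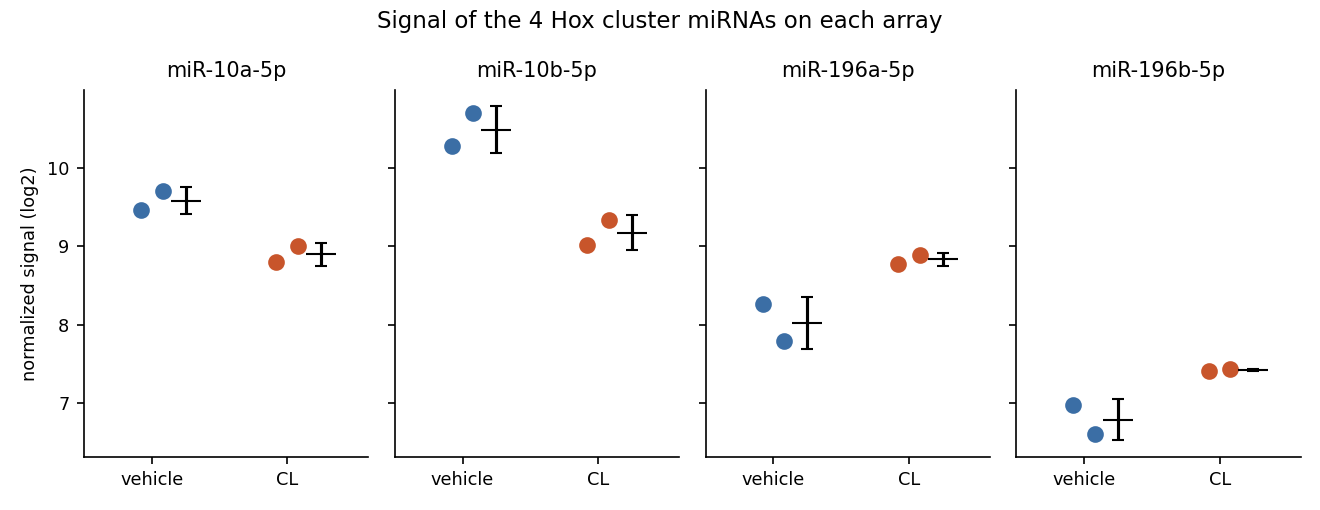
Normalized signal (log2, vertical axis) of each of the 4 miRNAs on the 2 vehicle and 2 CL arrays (points), with the group mean and SD (black, n = 2). The CL arrays lie below the vehicle arrays for miR-10a-5p and miR-10b-5p and above them for miR-196a-5p and miR-196b-5p; signals of different miRNAs come from different probes and are not comparable.

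The HoxD member mmu-miR-10b-5p had log2 signals of 10.28 and 10.69 with vehicle and of 9.01 and 9.33 with CL. Both CL arrays were low, and the gap to the vehicle arrays was wider than the spread within either group. The group means were 10.48 ± 0.29 (SD, n = 2) and 9.17 ± 0.22 (SD, n = 2), and the difference was −1.31 (SE 0.21; adjusted p = 0.0870, limma). It was the 9th most negative difference among the 425 tested miRNAs. MiR-10b is among the miRNAs that the study picked for display from these same arrays, so its difference is not independent evidence of its direction.

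The HoxB member mmu-miR-10a-5p had log2 signals of 9.46 and 9.70 with vehicle and of 8.79 and 9.0 with CL. The CL arrays were again both below the vehicle arrays. The group means were 9.58 ± 0.18 (SD, n = 2) and 8.90 ± 0.15 (SD, n = 2), and the difference was −0.68 (SE 0.16; adjusted p = 0.0935, limma). In the log2 table that the authors deposited the signals of miR-10a-5p were 9.04 and 9.13 with vehicle and 8.59 and 8.68 with CL, a difference of −0.45.

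For mmu-miR-196a-5p, made in the HoxB and HoxC clusters, the log2 signals were 8.26 and 7.79 with vehicle and 8.77 and 8.89 with CL. The CL arrays were both high and lay close to each other, whereas the vehicle arrays were further apart. The group means were 8.03 ± 0.33 (SD, n = 2) and 8.83 ± 0.08 (SD, n = 2), and the difference was 0.81 (SE 0.20; adjusted p = 0.0971, limma). It was 0.47 once a linear dependence of the signals on the length and the C and G content of the probes had been removed from each array.

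For mmu-miR-196b-5p, the HoxA member, the log2 signals were 6.97 and 6.61 with vehicle and 7.41 and 7.43 with CL. As for miR-196a-5p, vehicle 2 was the lowest array and the CL arrays were nearly equal. The group means were 6.79 ± 0.26 (SD, n = 2) and 7.42 ± 0.02 (SD, n = 2), and the difference was 0.63 (SE 0.17; adjusted p = 0.0971, limma). For single miRNAs the exact permutation test over 2 against 2 arrays cannot give a p below 0.333, and it gave that value for each of the 4.

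Because every slide column carried a vehicle array and a CL array, the difference could also be read within a column. In columns 3 and 4 it was −1.26 and −1.36 for miR-10b-5p and −0.66 and −0.70 for miR-10a-5p. It was 0.51 and 1.102 for miR-196a-5p and 0.44 and 0.83 for miR-196b-5p, larger in column 4 for both. The miR-10 differences therefore hardly moved between columns, whereas those of miR-196 varied with the vehicle array they were set against. With the column (that is, the replicate number) as a block in limma, the adjusted p was 0.00112 for miR-10b-5p, 0.0213 for miR-10a-5p, 0.0167 for miR-196a-5p and 0.0363 for miR-196b-5p. The SEs with the block were 0.186, 0.186, 0.207 and 0.195 in the same order, against 0.209, 0.160, 0.199 and 0.170 without it. Only that of miR-10b-5p became smaller, so the lower p-values of the others did not come from smaller SEs. Their unadjusted p-values were lower because limma borrowed more degrees of freedom across the tested miRNAs. The block itself left each miRNA fewer of its own. All 4 passed the threshold in the fit with the block, in which 12.0% of the tested miRNAs passed as lower and 13.6% as higher after CL. This rested on how the spots were summarised. With the median polish stopped at its default rule, the adjusted p with the block was 0.0236 for miR-10b-5p, which passed, and 0.0569, 0.0653 and 0.0752 for miR-10a-5p, miR-196a-5p and miR-196b-5p, which did not.

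The spot signals were next examined before any normalization. Each member was measured by 40 spots per array, in 2 probes for miR-10a-5p, miR-10b-5p and miR-196b-5p and in 4 probes for miR-196a-5p, and all 160 spots of each over the 4 arrays were well above background. On the 21-nt probe of miR-10b-5p the median spot signal was 2380 and 2596 with vehicle and 787 and 1076 with CL. On the 21-nt probe of miR-10a-5p it was 1225 and 1276 with vehicle and 599.9 and 798 with CL. For both miR-10 members every spot position was lower on both CL arrays than on both vehicle arrays (40 of 40 for each). On the 22-nt probe of miR-196a-5p the median was 426 and 283 with vehicle and 501 and 590.3 with CL, and on the 20-nt probe of miR-196b-5p it was 209 and 148 with vehicle and 233 and 255 with CL. The CL arrays were both above the vehicle arrays at 40 of 40 spot positions for miR-196a-5p and at 38 of 40 for miR-196b-5p. Spots of one array share their RNA and are not replicates of a treatment.

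**Figure D2:**
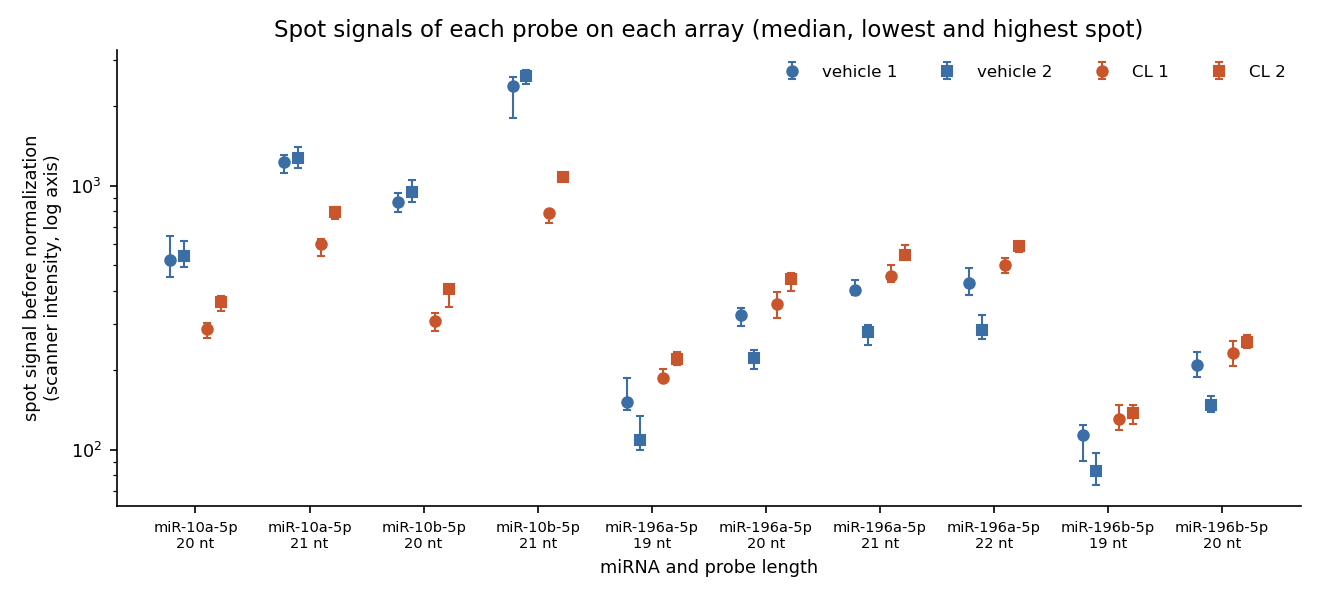
Spot signal before normalization (scanner intensity, log axis) for each probe of the 4 miRNAs, labelled by miRNA and probe length in nucleotides. Points are medians over the 10 or 20 spots of a probe and bars run from the lowest to the highest spot, for vehicle 1 and 2 (blue) and CL 1 and 2 (orange); on all 4 miR-10 probes the CL spots lie below the vehicle spots, while vehicle 2 is lowest on all 6 miR-196 probes.

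The probes of one member gave similar differences on the normalized log2 scale. For miR-10b-5p they were −1.22 on the 20-nt and −1.38 on the 21-nt probe, and for miR-10a-5p −0.62 and −0.75. The 4 probes of miR-196a-5p ranged from 0.73 to 0.91, and both probes of miR-196b-5p gave 0.63. Thus both probes of miR-10b-5p showed a larger difference than either probe of miR-10a-5p.

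The near-identical members of each family were then compared within each array, which cancels the array's overall level. The signal of miR-10b-5p minus that of miR-10a-5p was 0.82 and 0.99 with vehicle and 0.22 and 0.33 with CL. The CL values did not overlap the vehicle values. Between vehicle and CL the difference of the pair shifted by −0.63 (SE 0.10) on the log2 scale, so that miR-10b-5p was lower by 1.55-fold more than miR-10a-5p. For miR-196b-5p minus miR-196a-5p the values were −1.29 and −1.18 with vehicle and −1.36 and −1.46 with CL, a shift of −0.17 (SE 0.07). Here the groups did not overlap under the processing used, but they did in 7 of 13 alternatives that keep all arrays, and the shift was 0.0020 with the trend on probe composition and length removed. For the miR-10 pair the groups overlapped in 0 of those 13. The exact permutation p was 0.333 for both pairs, two-sided, before and after adjustment over the 2 comparisons, and is the smallest that this design allows.

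**Figure D3:**
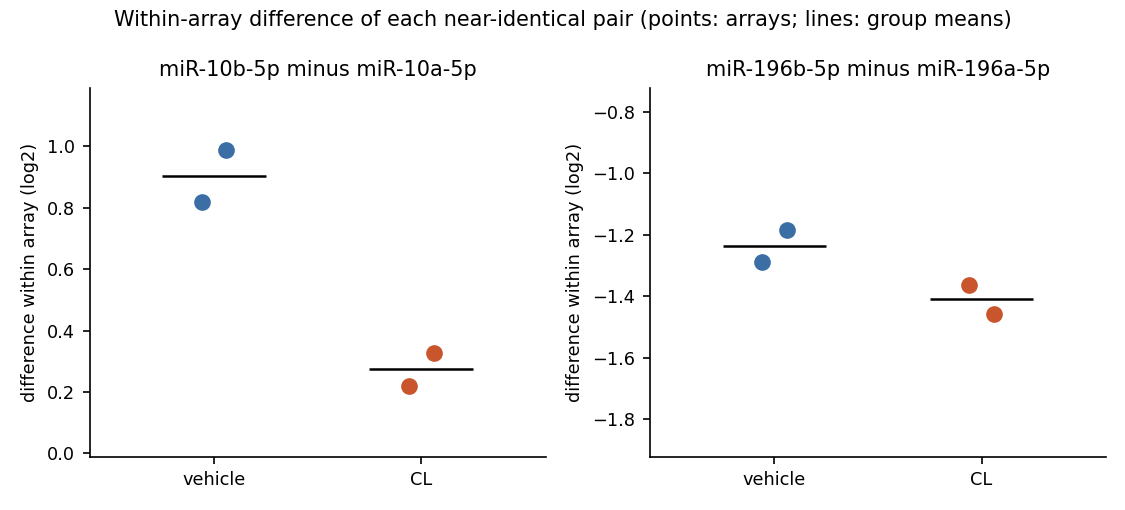
Within-array difference of log2 signals for each near-identical pair (vertical axes, spanning the same range in both panels) on the 2 vehicle and 2 CL arrays (points), with group means (lines). The gap between miR-10b-5p and miR-10a-5p narrows from 0.82 and 0.99 with vehicle to 0.22 and 0.33 with CL, and that of the miR-196 pair shifts by −0.17.

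Probe composition was given beside these results because the members of a family share most of it. The longest probes of miR-10a-5p and miR-10b-5p were both 23.8% C and 23.8% G, so the comparison between them was matched in both. Those of miR-196a-5p and miR-196b-5p were 36.4% and 40.0% C and 4.55% and 10.0% G, against medians of 31.8% C and 21.1% G over the tested miRNAs. With the trend on composition and length removed, the differences were −1.65 for miR-10b-5p and −1.02 for miR-10a-5p, with adjusted p-values of 0.0250 and 0.0449 (limma). They were 0.47 for both miR-196a-5p and miR-196b-5p, smaller than before and not past the threshold (adjusted p = 0.0606 and 0.0613, limma). In that fit 6.82% of the tested miRNAs passed as lower and 5.18% as higher after CL.

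The other miRNAs of the same hairpins and clusters were mostly below detection. Of 7 on the arrays (the opposite strands of the members and both arms of miR-615 from the HoxC cluster), 5 were detected on no array, and miR-10a-3p was detected on 1 vehicle array only. MiR-615-3p alone was tested, with log2 signals of 4.05 and 4.04 with vehicle and of 4.14 and 4.13 with CL. The difference of 0.09 did not pass the test (adjusted p = 0.635, limma). Whether the opposite strands moved with the members was not detectable at these signals.

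The closest relatives of miR-10 outside the Hox clusters are miR-99a, miR-99b and miR-100, known as repressors of mTOR signalling. They have a seed of their own, shown here because they otherwise resemble miR-10 closely.
miR-99a-5p: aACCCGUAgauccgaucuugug
miR-100-5p: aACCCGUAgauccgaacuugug
miR-99b-5p: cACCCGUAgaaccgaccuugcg
MiR-99a-5p had log2 signals of 10.16 and 9.75 with vehicle and of 10.85 and 10.94 with CL. MiR-100-5p had 8.75 and 8.53 with vehicle and 9.31 and 9.43 with CL. Both were higher on both CL arrays, opposite to miR-10, with differences of 0.94 (SE 0.18; adjusted p = 0.0890, limma) and 0.73 (SE 0.15; adjusted p = 0.0910, limma). MiR-99b-5p had 7.29 and 7.41 with vehicle and 7.40 and 7.41 with CL, a difference of 0.05 (adjusted p = 0.772, limma). Thus 2 of the 3 relatives passed the unadjusted threshold, both as higher, and 0 of 3 the adjusted one. Among all 425 tested miRNAs 18.8% passed the unadjusted threshold as higher, and 0% passed the adjusted one. Aligned at their 3′ ends, the miR-10 probes had between 2 and 6 mismatches to the relatives.

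**Figure D4:**
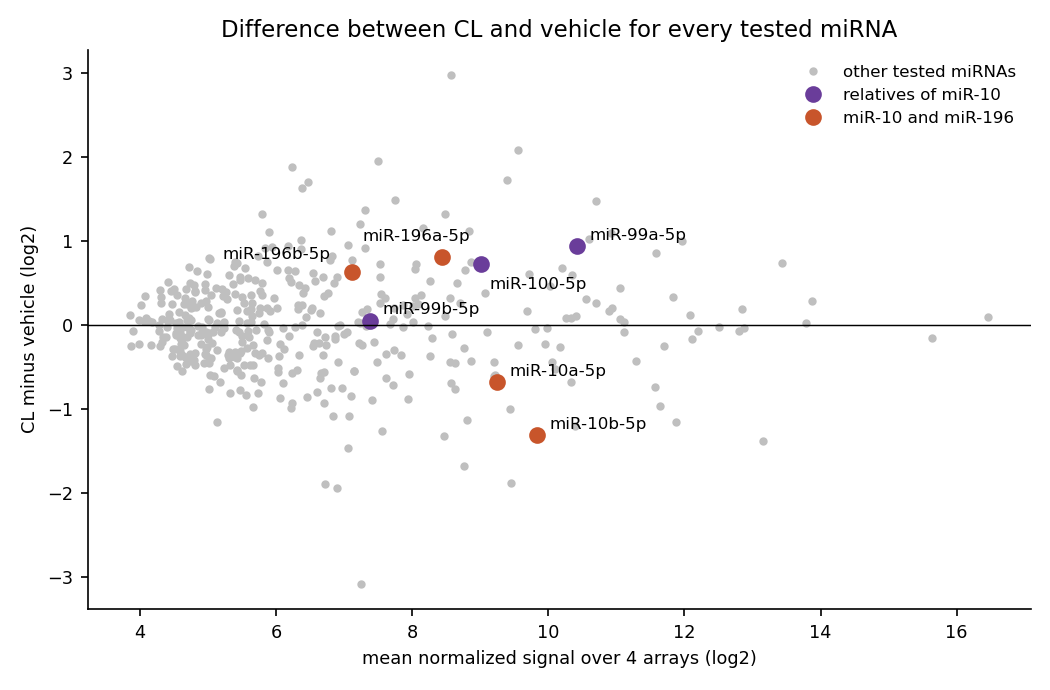
Difference between CL and vehicle (log2, vertical axis) against the mean normalized signal over the 4 arrays (log2, horizontal axis) for each of the 425 tested miRNAs (grey), with the miR-10 and miR-196 members (orange) and the relatives of miR-10 (purple) named. MiR-10b-5p at −1.31 and miR-10a-5p at −0.68 lie below 0, and the miR-196 members, miR-99a-5p and miR-100-5p lie above it.

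By the distance between signals centred per miRNA over the 4 arrays, each member was set against the other 424 tested miRNAs. With only 4 arrays such a likeness is a description of these libraries. The nearest to miR-10b-5p were miR-139-5p (distance 0.06), miR-5107-5p (0.16) and miR-3093-3p (0.20), and those nearest to miR-10a-5p were miR-151-5p (0.08), miR-1892 (0.11) and miR-483-5p (0.12). The nearest to miR-196a-5p were miR-125b-5p (0.07), miR-337-3p (0.08) and miR-154-5p (0.09), and those nearest to miR-196b-5p were miR-127-3p (0.05), miR-381-3p (0.06) and miR-497-5p (0.07). MiR-337, miR-154, miR-127 and miR-381 are all encoded in the imprinted Dlk1-Dio3 region, which was noticed after the values were seen. The miR-196 members lay at a distance of 0.20 from each other (15th of 424 from miR-196a-5p). The miR-10 members lay further apart, at 0.64 (171st of 424 from miR-10a-5p). The centred signals were not scaled, so this distance also counts the size of a difference. That size was −1.31 for miR-10b-5p and −0.68 for miR-10a-5p. Both miR-10 members ranked the arrays in the same order, as did both miR-196 members. The distances therefore cannot tell which pair was more alike in the shape of its pattern.

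Levels of miRNAs known from other cell types moved between the same arrays, and in bulk RNA fewer cells of a type and less RNA per cell cannot be told apart. Of 6 mesenchymal miRNAs (the miR-199 and miR-214 group and miR-152), 5 passed the unadjusted threshold as higher after CL and 0 as lower, with a median difference of 1.03. Of all tested miRNAs 18.8% passed it as higher and 16.7% as lower. The summed level or sum is the log2 of the added linear signals of a list's tested miRNAs, so the strongest signals largely set it. For the mesenchymal list it was 11.18 to 11.90 with vehicle and 12.71 to 12.75 with CL. The direction of miR-196a-5p and miR-196b-5p was the same as that of the 5 mesenchymal miRNAs that passed. Vehicle 2 was the lowest array for all of them. This pattern was not particular to mesenchymal miRNAs. Leukocyte miR-142-3p and miR-142-5p and red cell miR-144-3p shared it, and red cell miR-144-5p and miR-451a were higher with vehicle 1 lowest. Among all tested miRNAs 37.6% had both CL arrays above both vehicle arrays. Both endothelial miRNAs, miR-126-3p and miR-126-5p, passed as lower, with differences of −1.38 and −0.80 and a summed level of 13.80 to 13.92 with vehicle and 12.33 to 12.65 with CL. Of the mural pair tested, miR-145a-5p (−0.75) passed as lower and miR-143-3p (−0.44) did not pass, with a summed level of 9.06 to 9.31 against 8.61 to 8.73. The miR-10 members had the same direction as the endothelial and mural miRNAs. This direction was not particular to them, since leukocyte miR-150-5p and neural miR-124-3p were lower as well. Among all tested miRNAs 34.8% had both CL arrays below both vehicle arrays. Vehicle 2 was the highest array for both miR-10 members and miR-145a-5p, but lay below vehicle 1 for miR-126-3p, miR-126-5p and miR-143-3p.

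The same shares over all tested miRNAs, 18.8% higher and 16.7% lower, stand beside the counts that follow. Among leukocyte miRNAs, 2 of 4 passed as higher and 1 as lower, with a summed level of 10.75 to 11.16 with vehicle and 11.69 to 11.73 with CL. The 2 were both arms of miR-142 (2.09 for the 3p and 1.95 for the 5p arm). MiR-150-5p was lower (−0.89) and miR-223-3p hardly differed (0.08), so the list did not move as a whole. All 3 red cell miRNAs passed as higher, and their sum was 13.00 to 13.22 against 13.80 to 14.04. Of 7 epithelial or mesothelial miRNAs, 5 were detected nowhere. Of the 2 tested, miR-203-3p (−0.36) passed as lower, and miR-200b-3p (0.25) was higher on both CL arrays without passing. Their sums were 6.28 to 6.40 against 6.13 to 6.18. None of 3 skeletal muscle miRNAs passed, with sums of 7.17 to 8.15 against 7.92 to 8.11. Of 2 neural miRNAs, miR-9-5p was detected nowhere and miR-124-3p, with 9.25 and 9.94 against 7.75 and 8.07, passed as lower. The part of any of these cell types in the differences of miR-10 and miR-196 was not tested.

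The directions were last examined under 24 other ways of processing or testing the same signals, 17 of which change the signals themselves. Both miR-10 members were lower in 24 of 24, both miR-196 members were higher in 24 of 24, and miR-10b-5p was lower by more than miR-10a-5p in 24 of 24. Without normalization between arrays the median of all tested miRNAs moved to −0.12, and the differences were then −1.44 for miR-10b-5p, −0.83 for miR-10a-5p, 0.67 for miR-196a-5p and 0.54 for miR-196b-5p.

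**Figure D5:**
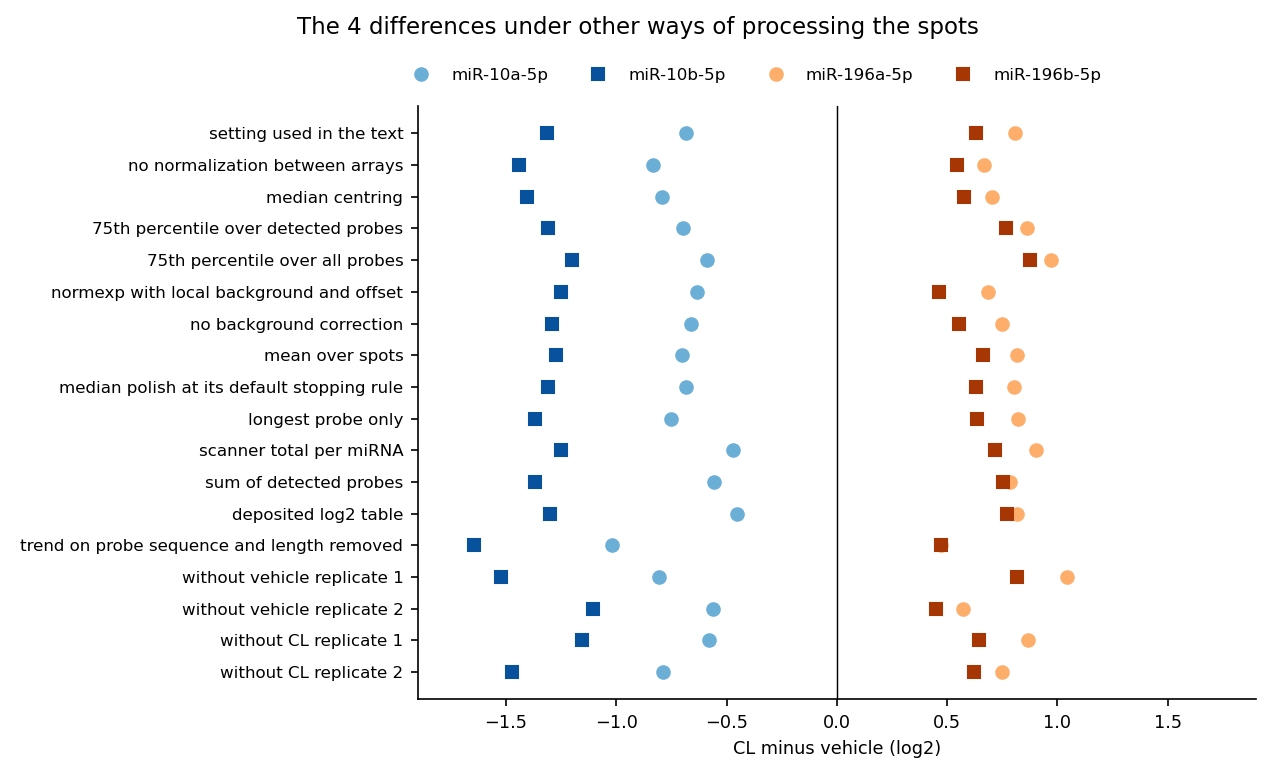
Difference between CL and vehicle (log2, horizontal axis) of the 4 miRNAs under the processing used in the text (top row) and under 17 others that change the signals, including leaving out each array. MiR-10a-5p stays between −1.02 and −0.45, miR-10b-5p between −1.65 and −1.11, miR-196a-5p between 0.47 and 1.04 and miR-196b-5p between 0.45 and 0.88.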

How the data were processed

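Mature miRNAs were measured in the visWAT SVF on 4 one-colour arrays, 2 per group by the sample titles. The authors deposited scanner files (Feature Extraction 10.7.1.1) with the linear intensity of each spot, and a table of log2 values described as quantile-normalized. The arrays hold 52044 spots each, of which 49880 belong to 1247 mouse miRNAs, and their small number limits the precision.

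From the spot intensity values, background was corrected with normexp (limma 3.58.1, R 4.3.3) on all spots, control and outlier spots were removed, and arrays were quantile-normalized, which assumes alike overall distributions. Log2 signals were summarised by median polish run to convergence. The 425 miRNAs found by the scanner on both vehicle arrays or on both CL arrays were tested. CL was compared with vehicle by limma (lmFit and eBayes, two-sided), adjusted by Benjamini-Hochberg over the tested miRNAs. The code was tested on simulated data. Members, lists and tests were chosen with earlier results of these data known. Named were the members, their Hox cluster neighbours and relatives, the 3 nearest patterns per member and cell type miRNAs. Sequences came from RefSeq, in which 1017 of the 1247 array names were found.

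The replicate numbers did not pair the samples by the labels. Same-numbered arrays deviated together with a correlation of 0.12 across the 425 miRNAs, but the numbers coincide with the slide column, so the block is reported. Alternatives covered background correction, scaling, summary, filter, test, block and leaving out each array. The median polish at its default stopping rule, with and without the block, was chosen after seeing the data. The smallest exact permutation p for 2 against 2 arrays is 0.333.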

Additional observations from a re-analysis of the deposited data

How the results depend on the processing

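No difference of the 4 miRNAs changed direction under the 24 alternatives. The count of tested miRNAs past limma's adjusted threshold, 0 in the text, was 51 with the probe trend removed, 45 with median centring, 69 when the arrays were not normalized, 27 with the scanner total per miRNA, 4 with the sum of detected probes, 7 with the deposited log2 table and 2 with an intensity trend. It was 109 with the replicate block, and 40 when that block was used with the median polish at its default stopping rule. Leaving out each array gave counts from 21 (without CL 1) to 233 (without vehicle 1), 73 without vehicle 2 and 31 without CL 2; the lone array is then assumed to vary like the other group.

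MiR-10a-5p passed the adjusted threshold without normalization (−0.83), with the probe trend removed (−1.02), with the replicate block (−0.68) and without vehicle 1, its values ranging from −0.81 to −0.56 over the arrays left out. MiR-10b-5p passed without normalization (−1.44), with median centring (−1.40), with the probe trend removed (−1.65), with the replicate block (−1.31 at either stopping rule) and without vehicle 1, vehicle 2 or CL 2 (−1.52 to −1.11 over the arrays left out). MiR-196a-5p (0.81) and miR-196b-5p (0.63) passed with the replicate block and without either vehicle array, ranging from 0.57 to 1.04 and from 0.45 to 0.82. Over the limma and t-test alternatives that keep all arrays, adjusted p-values ran from 0.0213 to 0.318 for miR-10a-5p and from 0.000951 to 0.318 for miR-10b-5p. They ran from 0.0167 to 0.318 for miR-196a-5p and from 0.0363 to 0.322 for miR-196b-5p. By SAM, which cannot pass the adjusted threshold here, they were 0.340 for both miR-10 members and 0.350 for both miR-196 members.

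The change of miR-10b-5p minus that of miR-10a-5p moved to −0.78 with the scanner total, −0.81 with the sum of detected probes and −0.85 with the deposited table. That of miR-196b-5p minus miR-196a-5p, −0.17 in the text, was −0.093 and −0.092 at the 75th percentile over detected and all probes, −0.031 with the sum of detected probes, −0.047 with the deposited table and 0.0020, reversed, with the probe trend removed. The cause was not tested.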

Other observations

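The scanner files list 2 positions for each locus of a probe. For the probes of miR-10a-5p, miR-10b-5p and miR-196a-5p 1 of the 2 lay inside the RefSeq mature miRNA, whereas for both probes of miR-196b-5p neither did, although their sequences matched the mature miRNA of that name exactly. The coordinates given for miR-196b-5p are therefore those of RefSeq.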
